A study of Mus musculus with 20 samples.

Results

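NMuMG cells silenced for hnRNP E1 and then for the lincRNA Platr18 (E1KD Platr18 KD) were compared with NMuMG cells carrying an empty overexpression vector (Empty vector), which asks what remains of the hnRNP E1-silenced state once Platr18 is silenced as well. The comparison covers the 15185 genes with at least 1 CPM (counts per 1e6 reads) in at least 2 of its 4 libraries, out of 17106 genes tested over the 20 libraries of the study and 54986 genes in the deposited table. NMuMG is an epithelial line from the normal mouse mammary gland. The E1KD Platr18 KD cells express an shRNA against hnRNP E1 and an shRNA against Platr18, and the Empty vector cells express neither. The groups therefore differ in 2 shRNAs and in the vector backbone, and the parts of these in a difference cannot be told apart from the 2 groups alone. E1KD SCR cells, with the hnRNP E1 shRNA and a scrambled shRNA, are given beside them, and these comparisons share libraries. NMuMG cells without a vector and the same cells with only the hnRNP E1 shRNA (E1KD) form a second hnRNP E1 comparison that shares no library with the first. Each group has 2 libraries, and the labels say neither that replicates are separate cultures nor whether a silenced line is a clone. The p-values and intervals thus measure a spread between replicate libraries that may be technical. This spread was pooled over all 20 libraries, not taken from the 4 compared. The pool includes E1KD, whose replicates differed most (SD of the log2 difference 0.38, against 0.08 in E1KD Platr18 KD and 0.12 in Empty vector).

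hnRNP E1, encoded by Pcbp1, is an RNA-binding protein that recognizes C-rich stretches and holds back the translation of transcripts used in the epithelial-mesenchymal transition (EMT). In EMT, cells lose junctions and polarity and gain matrix proteins and motility, and TGFβ is a known inducer in NMuMG cells. Platr18, listed in the table as Lncenc1, is a long intergenic RNA first described in embryonic stem cells. Semaphorins, among them Sema4F, act through plexins and neuropilins and are best known from the guidance of axons.

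The E1KD Platr18 KD values were scaled to 147 M reads in each library and the Empty vector values to 73.0 and 69.0 M, in units of 1e6 reads (M). A gene with 3 reads thus has 0.0204 CPM in the first group and 0.0411 or 0.0434 CPM in the second. The mitochondrial rRNA mt-Rnr2 took 15.3% and 15.4% of the summed CPM in E1KD Platr18 KD and 20.7% in each Empty vector library. It took at most 0.0756% in the NMuMG and E1KD libraries, which are called the low mt-Rnr2 libraries here. The labels give the same library protocol for all samples, and why the shares differ was not tested. Among epithelial markers, E-cadherin (Cdh1) had 125 to 127 CPM and the keratins Krt8 and Krt18 at least 730 CPM in each of the 4 libraries, whereas Epcam and Cldn7 had at most 0.0136 CPM. Of the marker lists for other cell types, 0 of 7 fibroblast genes and 0 of 5 endothelial genes reached the limit of 1 CPM in 2 libraries. The same limit was reached by 2 of 7 myoepithelial genes (Acta2 and Myh11), 1 of 7 immune genes (Cd68), 1 of 5 adipocyte genes (Pparg) and 1 of 6 neural and glial genes (Mbp). Pparg rose from 0.205 and 0.217 CPM in Empty vector to 1.91 and 1.63 CPM in E1KD Platr18 KD, and Cidec, a lipid droplet gene of the same list, had 0.137 and 0.130 CPM against 0.835 and 0.695 CPM. Adipoq, Lep and Plin1 stayed at or below 0.0411 CPM, and the summed adipocyte list moved from between 0.362 and 0.397 CPM to between 2.37 and 2.78 CPM. Mbp fell from 41.4 and 39.9 CPM to 13.0 and 12.7 CPM. In E1KD SCR, Mbp had 12.5 and 13.1 CPM, Pparg 2.59 and 2.87 CPM and Cidec 0.568 and 0.762 CPM. The part of other cell types in the results was not tested.

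Of the 15185 genes, 1128 (7.43%) passed the test, with 501 (3.3%) called higher and 627 (4.13%) lower in E1KD Platr18 KD than in Empty vector, at an unadjusted p under 0.001 from limma and a change of at least 1 on the log2(CPM + 1) scale. Over all 17106 genes tested the numbers were 1132 (6.62%), 503 (2.94%) and 629 (3.68%), and the largest Benjamini-Hochberg adjusted p among the calls was 0.00228. With values rescaled to equal sums the split of the calls was 540 higher and 524 lower, since that scaling moves the median of all genes by 0.06. The added 1 CPM pulls fold changes of weakly expressed genes toward 0. In E1KD SCR against Empty vector 497 genes (2.91%) were called higher and 526 (3.07%) lower, 1023 (5.98%) in all. In E1KD Platr18 KD against E1KD SCR the calls were 83 (0.485%) and 170 (0.994%), 253 (1.48%) in all. The median log2 fold change over the 15185 genes was 0.01, the median size was 0.24, and the median standard error was 0.10. The 2 libraries of each group lay wholly above or below those of the other group for 12574 genes (82.8%), in the higher direction for 42.4% and in the lower for 40.4%, so this property alone says little. A change of at least 3 on the log2 scale was called for 50 genes in the higher and 60 in the lower direction. Among the genes, 459 reached 1 CPM only in Empty vector and 393 only in E1KD Platr18 KD. Of the 14060 genes with 1 CPM in all 4 libraries, 276 were called higher and 382 lower.

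Pcbp1, the target of the first shRNA, had 32.3 CPM in each Empty vector library and 3.04 and 2.92 CPM in E1KD Platr18 KD. The groups were far apart, with a log2 fold change of -3.06 (SE 0.08, adjusted p = 1.1e-12). The E1KD SCR libraries had 3.28 and 3.46 CPM, so hnRNP E1 mRNA was low with either second shRNA. In the low mt-Rnr2 libraries Pcbp1 had 287 and 312 CPM in NMuMG and 16.6 and 14.2 CPM in E1KD. None of the 3 paralogs was called, nor did any reach an unadjusted p under 0.05. The paralog Pcbp2, which also binds C-rich RNA, had 44.5 and 43.7 CPM in Empty vector and 36.1 and 36.3 CPM in E1KD Platr18 KD, and was not called (log2 fold change -0.28, 95% interval -0.69 to 0.13).

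Lncenc1 had 3.68 and 3.06 CPM in Empty vector and 0.136 and 0.170 CPM in E1KD Platr18 KD. Platr18 was thus below the level of cells in which hnRNP E1 had not been silenced (log2 fold change -1.92, SE 0.09, adjusted p = 4.9e-10). The E1KD SCR libraries had 2.92 and 3.10 CPM, close to Empty vector, with a log2 fold change of -0.12 between these groups. In the other pair of groups, Lncenc1 had 1.24 and 1.45 CPM in NMuMG and 17.9 and 14.6 CPM in E1KD.

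Sema4f did not reach 1 CPM in 2 of the 4 libraries and is given because its regulation by Platr18 was the question of the study. It had 0.123 and 0.232 CPM in Empty vector and 0.353 and 0.293 CPM in E1KD Platr18 KD, so both groups were low. The difference was not called, at a log2 fold change of 0.17 with a 95% interval from -0.06 to 0.40. The E1KD SCR libraries stood higher, at 2.69 and 2.94 CPM, with a log2 fold change of 1.70 against Empty vector and of -1.53 for E1KD Platr18 KD against E1KD SCR.

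**Figure D1:**
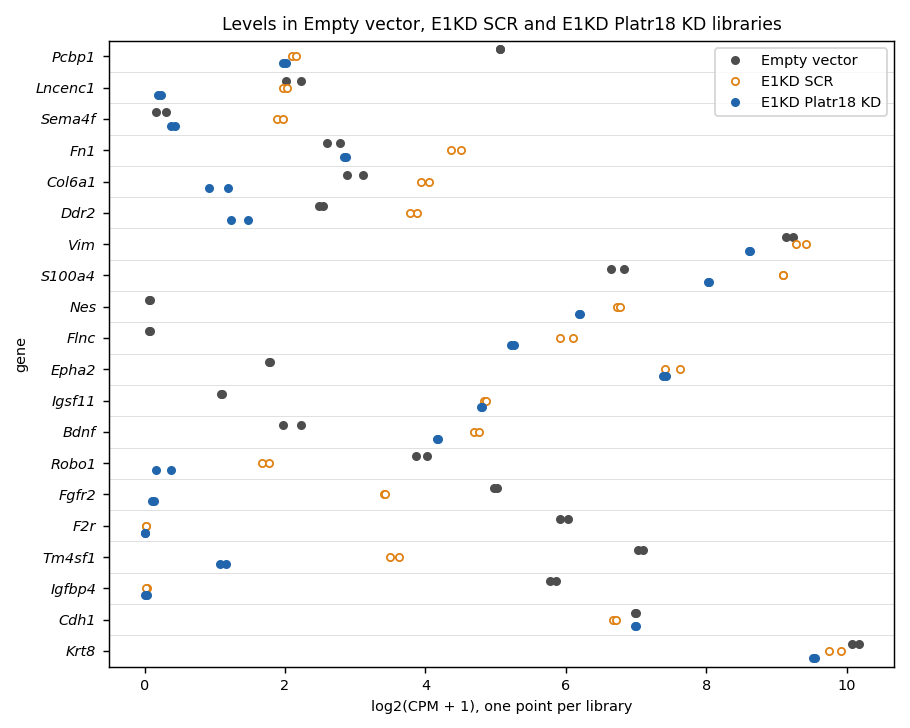
Levels of 20 genes as log2(CPM + 1), a point for each library, in Empty vector (grey), E1KD SCR (open orange) and E1KD Platr18 KD (blue). Pcbp1, Nes, Epha2 and Igsf11 have similar positions in both silenced groups, Sema4f and Fn1 are high only in E1KD SCR among the 3 groups, and Fgfr2, Tm4sf1 and Robo1 are lowest in E1KD Platr18 KD.

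The 8 genes with the largest decrease, among those with at least 5 CPM in the higher group, were F2r, Tm4sf1, Igfbp4, Klhl13, Tex101, Slc16a12, Pard3b and Cdh16. F2r, the thrombin receptor, had 59.3 and 64.3 CPM in Empty vector and 0.00679 and 0 CPM in E1KD Platr18 KD, and the E1KD SCR libraries had at most 0.0159 CPM. Tm4sf1, a membrane protein, fell from 129 and 136 CPM to 1.24 and 1.11 CPM (log2 fold change -5.94, SE 0.13, adjusted p = 8.2e-14). It was intermediate in E1KD SCR, at 11.4 and 10.3 CPM. Igfbp4, which binds insulin-like growth factors, had 57.1 and 53.9 CPM in Empty vector and 0.00679 and 0.0204 CPM in E1KD Platr18 KD.

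Klhl13, an adaptor of a cullin ubiquitin ligase, fell from 156 and 150 CPM to 1.86 and 2.15 CPM (log2 fold change -5.68, SE 0.09), with 14.7 and 14.0 CPM in E1KD SCR. Slc16a12, a transporter of the monocarboxylate family, fell from 104 and 91.0 CPM to 1.49 and 1.73 CPM (log2 fold change -5.24, SE 0.08), and was lower still in E1KD SCR, at 0.677 and 0.794 CPM. Cdh16, a cadherin known from kidney epithelium, fell from 106 CPM in each Empty vector library to 1.89 and 2.29 CPM (log2 fold change -5.12, SE 0.16). Pard3b, of the PAR polarity family, had 37.8 and 35.7 CPM in Empty vector and 0.00679 and 0.00681 CPM in E1KD Platr18 KD. Tex101, a glycoprotein known from germ cells, had 38.1 and 38.3 CPM in Empty vector and no read in E1KD Platr18 KD, which makes it at least 1874-fold lower against a floor of 3 reads per library. Mal2, a protein of apical transcytosis, and Slc25a13, a mitochondrial aspartate-glutamate carrier, were among the 5 lower genes with the smallest p. Mal2 had 30.1 and 29.0 CPM against 0.00679 and 0 CPM, and Slc25a13 had 21.4 and 21.8 CPM against 0 in both libraries.

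The 8 genes with the largest increase by the same rule were Nes, Epha2, Ak4, Flnc, Abcc2, Hspb8, Zfp518b and Tead2. Nes, the intermediate filament protein nestin of progenitor cells, had 0.0411 and 0.0579 CPM in Empty vector and 71.9 and 72.5 CPM in E1KD Platr18 KD (log2 fold change 6.12, SE 0.07, adjusted p = 3.4e-16). Epha2, an ephrin receptor, rose from 2.45 and 2.40 CPM to 172 and 165 CPM, a 69.3-fold change of the means (log2 fold change 5.63, SE 0.12). Flnc, the actin crosslinker filamin C, had 0.0411 and 0.0579 CPM against 37.4 and 36.1 CPM (log2 fold change 5.17, SE 0.19). The E1KD SCR libraries were also high in these genes, with 105 and 108 CPM for Nes, 170 and 196 CPM for Epha2 and 59.5 and 68.0 CPM for Flnc.

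Abcc2, an efflux transporter, rose from 0.425 and 0.203 CPM to 34.6 and 35.2 CPM (log2 fold change 4.78, SE 0.13). Hspb8, a small heat shock protein, rose from 1.19 and 1.12 CPM to 53.5 and 56.5 CPM (log2 fold change 4.70, SE 0.09), and Cadps, a factor of vesicle exocytosis, from 0.110 and 0.159 CPM to 13.0 and 11.3 CPM (log2 fold change 3.53, SE 0.06). Ak4, a mitochondrial adenylate kinase, had at most 0.0145 CPM in Empty vector and 35.9 and 38.3 CPM in E1KD Platr18 KD. Tead2, a DNA-binding partner of YAP in the Hippo pathway, had 0.0411 and 0.0145 CPM against 24.6 and 23.98 CPM, and the zinc finger gene Zfp518b had 0.0137 and 0.0145 CPM against 24.8 and 25.0 CPM. Each of these genes was near the limit of detection in Empty vector or below 2 CPM.

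A set of 45 genes was read in only 1 of the 2 groups, with at least 5 CPM in both libraries of that group and at most 3 reads in both libraries of the other, a description chosen after the values were seen. Of these, 20 were read in Empty vector and 25 in E1KD Platr18 KD. Fitted fold changes of such genes depend on the pseudocount and are no bound. Besides Tex101 and Slc25a13, the genes with no read in either E1KD Platr18 KD library included Prdx4, a peroxiredoxin of the endoplasmic reticulum (21.2 and 22.8 CPM in Empty vector), the ion channel gene Trpa1 (12.2 and 10.7 CPM) and Micu2, a regulator of mitochondrial calcium uptake (10.6 and 10.1 CPM). Those with no read in Empty vector included Hexa, a subunit of lysosomal hexosaminidase (20.7 and 21.5 CPM in E1KD Platr18 KD), the GTPase gene Rab32 (9.26 and 10.3 CPM), the homeobox gene Hoxa10 (6.88 and 7.08 CPM) and Hs3st3b1, an enzyme of heparan sulfate synthesis (7.79 and 7.57 CPM).

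The libraries of other groups were then read for the same 45 genes. All 25 genes read in E1KD Platr18 KD had at least 1 CPM in both E1KD SCR libraries and 24 had it in both E1KD libraries. The number was 22 in the cells recovered from primary tumors of E1KD cells (M1P) and 22 in those from lung metastases (L1P). At most 3 reads in both libraries were found for 18 of the 25 in NMuMG, 18 in TGFβ-treated NMuMG, and 22 and 21 in the Platr18-overexpressing clones 12 and 16. The 20 genes read in Empty vector had at least 1 CPM in both libraries for 20 in NMuMG, 18 in TGFβ-treated NMuMG, and 16 and 17 in the clones, and at most 3 reads for 13 in E1KD SCR and 9 in E1KD. With a limit of 1 CPM in place of 5 CPM for the higher group, the pattern was present in NMuMG and E1KD for 9 of the 20 and for 17 of the 25. Over all 15185 genes it was present by that lower limit for 21 (0.138%) and 54 (0.356%). Epha5, an ephrin receptor gene of neurons, was the gene of the 25 below 1 CPM in E1KD. RP23-42N14.3 was the gene of the 25 that also passed 1 CPM in both NMuMG libraries, with 32.6 and 34.8 CPM. It had 27.6 and 32.7 CPM in E1KD and 5.55 and 5.88 CPM in E1KD Platr18 KD.

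**Figure D2:**
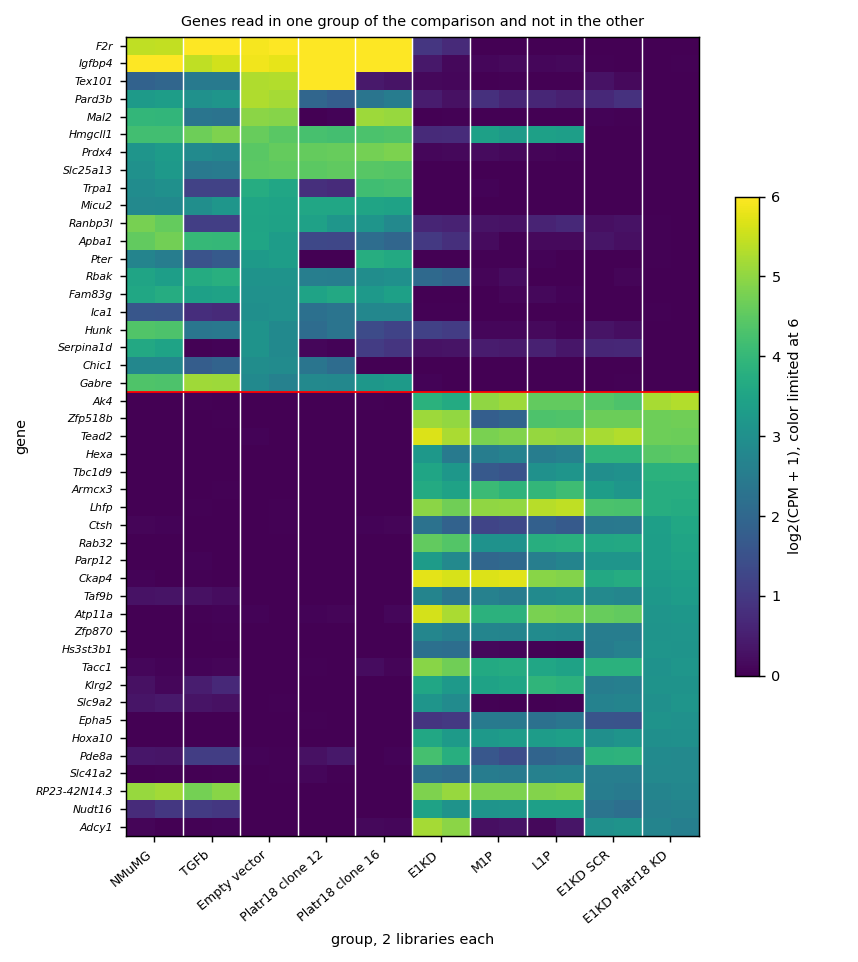
Levels of the 20 genes read in Empty vector (above the red line) and the 25 read in E1KD Platr18 KD (below it) in all 20 libraries, as log2(CPM + 1) with colors limited at 6. Columns are the 10 groups with 2 libraries each, and most of the 25 lower genes are dark in the 5 groups without hnRNP E1 shRNA and bright in the 5 groups with it.

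To ask how much of the change after hnRNP E1 silencing was present in E1KD Platr18 KD, the genes called between E1KD and NMuMG were read in this comparison. Between E1KD and NMuMG 1614 genes (9.44% of those tested) were called, 1102 (6.44%) higher and 512 (2.99%) lower. Of the 1102, 307 (27.9%) were also called higher in E1KD Platr18 KD against Empty vector, beside 2.94% of all genes tested, and they made up 61% of the 503 called higher there. Of the 512, 247 (48.2%) were also called lower, beside 3.68% of all genes, and made up 39.3% of the 629. No call was made for 770 of the genes higher in E1KD and for 256 of those lower in it, and the median log2 fold changes of the full groups were 0.51 and -0.97. In E1KD SCR against Empty vector, 403 of the 1102 and 286 of the 512 were called in the same direction, with medians of 0.76 and -1.12. The 1102 and their share depend on single libraries. Without replicate 2 of E1KD 2619 genes were called higher in E1KD, of which 338 (12.9%) were also called higher in E1KD Platr18 KD, and without its replicate 1 the numbers were 741 and 276 (37.2%). The E1KD replicates differed by a median of 0.29 on the log2 scale. The distance between 27.9% and 48.2% depends on the scaling. With values rescaled to equal sums, 842 genes were called higher in E1KD and 693 lower. Of these, 289 (34.3%) and 259 (37.4%) were called in the same direction in E1KD Platr18 KD against Empty vector. With equal protein-coding sums the numbers were 748 and 765, with 269 (36%) and 302 (39.5%).

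Opposite calls in the 2 comparisons were made for 34 genes. Of these, 25 were higher in E1KD against NMuMG and lower in E1KD Platr18 KD against Empty vector. They include Lncenc1, the collagen gene Col6a1, the collagen receptor Ddr2, the activin subunits Inhba and Inhbb, the Notch ligand Jag2, the connexin gene Gja1, the endothelin gene Edn1 and the secreted kinase gene Fam20c. Gja1, whose product forms gap junctions, fell from 22.6 and 24.7 CPM in Empty vector to 3.67 and 3.23 CPM (log2 fold change -2.47, SE 0.09), with 15.9 and 16.4 CPM in E1KD SCR. Crisp1, a secreted protein known from the epididymis, fell from 22.2 and 19.8 CPM to 1.06 and 1.16 CPM (log2 fold change -3.38, SE 0.14), with 19.2 and 16.9 CPM in E1KD SCR. In both genes the E1KD SCR libraries were nearer to Empty vector than to E1KD Platr18 KD. Edn1 fell from 4.75 and 5.42 CPM to 0.943 and 1.10 CPM, with 5.93 and 5.64 CPM in E1KD SCR.

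The other 9 were lower in E1KD against NMuMG and higher here, among them the epithelial factor Ehf, the sulfate transporter Slc26a2 and the receptor phosphatase Ptpru. Slc26a2 rose from 166 and 160.2 CPM in Empty vector to 381 and 382 CPM (log2 fold change 1.22, SE 0.07), and Ptpru from 2.10 and 1.93 CPM to 9.37 and 9.26 CPM (log2 fold change 1.78, SE 0.09). In E1KD SCR, Slc26a2 had 191 and 181 CPM and Ptpru had 2.98 and 3.62 CPM. These genes were named after their values were seen, and the 2 effects come from libraries that differ in their mt-Rnr2 share.

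**Figure D3:**
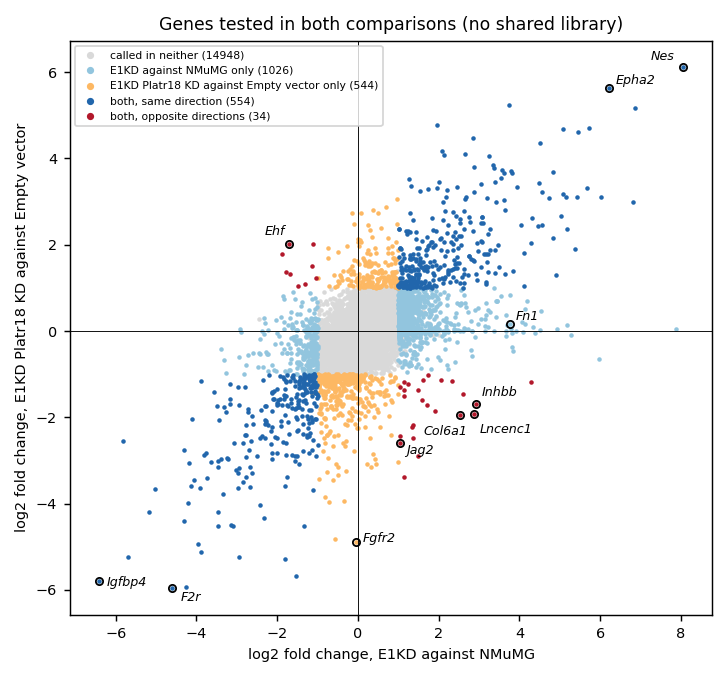
Log2 fold changes of the 17106 tested genes in E1KD against NMuMG (horizontal) and in E1KD Platr18 KD against Empty vector (vertical), with a point for each gene and colors for the calls. Dark blue marks the genes called in the same direction in both comparisons and red the 34 genes called in opposite directions. Fn1 lies near 0 on the vertical axis and Fgfr2 near 0 on the horizontal axis.

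The lists of genes that follow are described by counts and medians of their members. Over all 15185 genes, 3.3% were called higher and 4.13% lower. Up to 6 members of such a list reached 1 CPM in only 1 of the 2 groups, and the direction of these genes follows from that choice. They include the called genes Nes, Flnc, Marveld2, Krt7, Plxna4, Sema6d, Robo1, Slit3, Parp12, Parp14, Fgfr2, Cdkn2a, Slc38a1, Aldh3a1, Eno2 and Pfkp. Of 17 epithelial junction genes with 1 CPM, 0 were called higher and 1 lower, near the shares over all genes. Their median log2 fold change was -0.17 beside 0.01 over all genes. At an unadjusted p under 0.05 in limma, 3 of these 17 had positive and 7 negative fold changes. Cdh1 had 127 and 125 CPM in Empty vector and 126 and 127 CPM in E1KD Platr18 KD (log2 fold change 0.00, 95% interval -0.22 to 0.22), and 101 and 104 CPM in E1KD SCR. Marveld2, the tight junction protein tricellulin, fell from 7.70 and 6.89 CPM to 0.0204 and 0.0272 CPM (log2 fold change -3.02, SE 0.08), and was as low in E1KD SCR, at 0.0406 and 0.0635 CPM. Of 4 simple keratins 1 was called lower, with a median log2 fold change of -0.71. Krt8, Krt18 and Krt19 had -0.59, -0.55 and -0.83 and were under the limit for a call, each at an unadjusted p under 0.05 in limma. Krt7 fell from 8.71 and 9.72 CPM to 0.489 and 0.511 CPM (log2 fold change -2.77, SE 0.13). Of 8 epithelial regulators 2 were called, both higher. Ehf, an ETS factor of epithelia, rose from 21.2 and 20.1 CPM to 81.3 and 92.8 CPM (log2 fold change 2.02, SE 0.13), with 62.5 and 52.9 CPM in E1KD SCR, and the intestinal homeobox gene Cdx2 rose from 2.23 and 2.61 CPM to 7.53 and 8.20 CPM.

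Mesenchymal genes did not move together. Of 13 members 2 were called higher and 1 lower, with a median log2 fold change of 0.09, whereas in E1KD SCR against Empty vector 4 were called higher and 0 lower. Besides Nes, S100a4, a calcium-binding protein of motile cells, rose from 99.1 and 112 CPM in Empty vector to 261 and 262 CPM (log2 fold change 1.30, SE 0.16), with 543 and 546 CPM in E1KD SCR. Ddr2 fell from 4.62 and 4.79 CPM to 1.79 and 1.33 CPM (log2 fold change -1.16, SE 0.11), although the E1KD SCR libraries had 13.7 and 12.7 CPM.

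The fibronectin gene Fn1, named here after its values were seen like Vim and Cdh2, had 5.90 and 5.03 CPM in Empty vector and 6.13 and 6.27 CPM with both shRNAs. The difference was 0.16 on the log2 scale, with a 95% interval from -0.22 to 0.53, and the E1KD SCR libraries stood higher, at 19.6 and 21.8 CPM. Vimentin (Vim) had 560.0 and 599.6 CPM against 394 and 388 CPM, a log2 fold change of -0.57 that was under the limit for a call. N-cadherin (Cdh2) had 56.6 and 55.6 CPM against 100.5 and 95.5 CPM, at 0.79 also under that limit. Thus within the list Fn1 was near its Empty vector level, Vim below it and Cdh2 above it. Of 6 EMT transcription factors 0 were called, and at an unadjusted p under 0.05 in limma 1 had a positive and 3 a negative fold change. Zeb1 had 19.9 and 20.46 CPM against 16.2 and 16.9 CPM, and Sox4 had 198 and 192 CPM against 131 and 136 CPM.

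Of 7 collagen genes 1 was called lower and 0 higher, with a median of -0.69. Of the 7, 2 (Col7a1 and Col16a1) reached 1 CPM in Empty vector only and so could only be lower. Col6a1, a chain of the microfibrillar collagen VI, fell from 6.40 and 7.68 CPM to 0.889 and 1.27 CPM (log2 fold change -1.95, SE 0.13), while the E1KD SCR libraries had 14.4 and 15.5 CPM. Col4a1, a chain of basement membrane collagen, had 50.2 and 48.7 CPM against 27.9 and 30.1 CPM and was not called at -0.75. Of 17 integrin and laminin genes 5 were called lower and 1 higher, with a median of -0.60. Lamb3, a laminin chain of epithelial basement membrane, fell from 42.3 and 46.9 CPM to 6.25 and 6.90 CPM (log2 fold change -2.59, SE 0.20).

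Lamc1 fell from 149 and 143 CPM to 51.0 and 52.1 CPM (log2 fold change -1.48, SE 0.11) and the collagen receptor subunit Itga2 from 153 and 152 CPM to 60.9 and 62.8 CPM (log2 fold change -1.29, SE 0.07). The fibronectin receptor subunit Itga5 rose from 2.70 and 2.61 CPM to 6.96 and 7.06 CPM (log2 fold change 1.13, SE 0.11). The E1KD SCR values lay on the same side of Empty vector for Lamb3, Lamc1, Itga2 and Itga5. Of 12 proteases and inhibitors of the matrix 1 was called higher and 2 lower. Of the 12, 3 reached 1 CPM in only 1 of the 2 groups. Among them, Plau could only be higher and Mmp19 only lower. Plau, the urokinase that activates plasminogen, had 0.0959 and 0.0869 CPM against 5.38 and 5.10 CPM (log2 fold change 2.51, SE 0.09), Mmp19 fell from 2.44 and 2.48 CPM to 0.292 and 0.300 CPM, and the inhibitor Timp1 fell from 14.9 and 16.9 CPM to 7.11 and 6.76 CPM.

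In TGFβ and BMP signaling, ligands of the TGFβ, activin and BMP types bind paired receptor kinases, and these phosphorylate Smad proteins that enter the nucleus. Of 34 members 11 were called lower and 1 higher, with a median log2 fold change of -0.48 beside 0.01 over all genes. The same members had 3 lower and 3 higher calls in E1KD SCR against Empty vector and 3 lower and 0 higher calls in E1KD Platr18 KD against E1KD SCR. Of the 34, 4 reached 1 CPM in only 1 of the 2 groups. Inhbb, Bmp4 and Tgfbr3 did so in Empty vector and could only be lower, and they are among the 11. Tgfb2 did so in E1KD Platr18 KD, could only be higher and was not called.

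Among the ligands, the activin subunit gene Inhbb had 3.37 and 3.92 CPM in Empty vector, 5.64 and 6.08 CPM in E1KD SCR and 0.407 and 0.449 CPM in E1KD Platr18 KD (log2 fold change -1.70, SE 0.09). Inhba, the other activin subunit, fell from 19.8 and 18.0 CPM to 6.39 and 5.65 CPM (log2 fold change -1.505, SE 0.09), with 12.4 and 13.0 CPM in E1KD SCR. The BMP ligands Bmp4 and Bmp7 fell from 4.99 and 4.55 CPM to 0.645 and 0.783 CPM and from 6.68 and 5.62 CPM to 1.61 and 1.46 CPM. Of these 4 genes, Inhbb alone was higher in both E1KD SCR libraries than in both Empty vector libraries. The TGFβ ligand genes went the other way without reaching the limit for a call, Tgfb1 with 1.73 and 1.36 CPM against 3.41 and 3.36 CPM, and Tgfb2 with 0.479 and 0.637 CPM against 1.59 and 1.46 CPM.

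Among receptors, the co-receptor Tgfbr3 (betaglycan) fell from 13.1 and 11.2 CPM to 0.0517 and 0.0817 CPM (log2 fold change -3.62, SE 0.14), with 0.593 and 0.411 CPM in E1KD SCR. The activin receptors Acvr1 and Acvr2a fell with log2 fold changes of -1.26 and -1.05. The signaling receptors Tgfbr1 and Tgfbr2 were under the limit, at -0.47 and -0.64. Downstream, Smad2, which carries the TGFβ signal, fell from 37.7 and 38.6 CPM to 17.5 and 17.1 CPM (log2 fold change -1.09, SE 0.12), and was as low in E1KD SCR, at 17.5 and 16.4 CPM. Smad7, a feedback inhibitor and target of the pathway, fell from 20.6 and 18.4 CPM to 5.88 and 6.21 CPM (log2 fold change -1.54, SE 0.10), and the corepressor Skil from 90.5 and 81.9 CPM to 41.5 and 42.0 CPM (log2 fold change -1.03, SE 0.08). Id3, a target of BMP signaling, was the member called higher, with 4.95 and 5.14 CPM against 16.5 and 20.2 CPM (log2 fold change 1.67, SE 0.13).

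**Figure D4:**
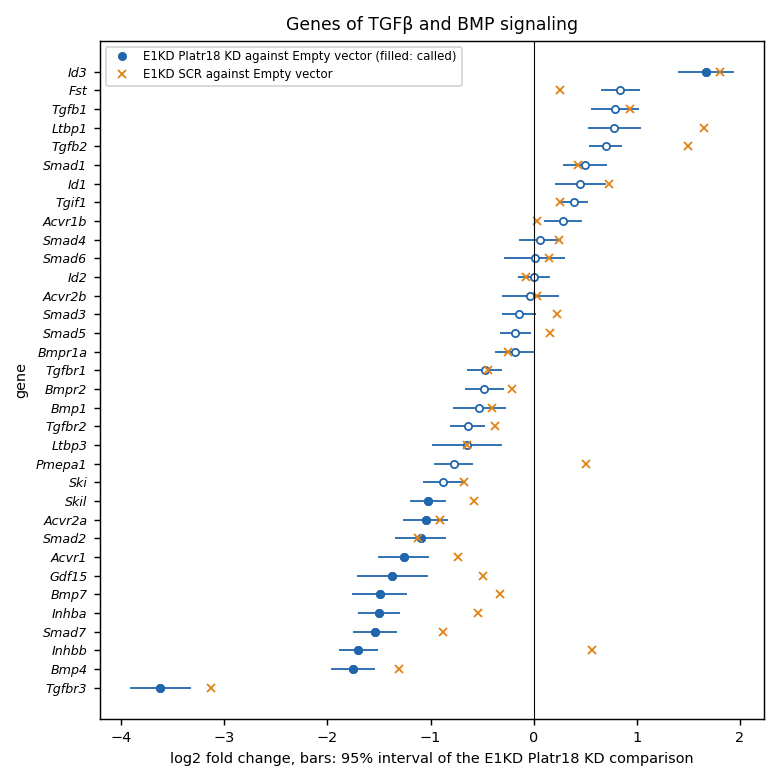
Log2 fold changes of the 34 TGFβ and BMP genes in E1KD Platr18 KD against Empty vector, with 95% intervals (blue, filled where called), and in E1KD SCR against Empty vector (orange crosses). The 11 genes at the bottom are called lower and Id3 at the top is called higher. The crosses of Inhbb and Pmepa1 lie at 0.56 and 0.50, and their blue points at -1.70 and -0.78.

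Axon guidance genes were called in both directions. Of 19 semaphorin, plexin and neuropilin genes 1 was called higher and 3 lower, with a median log2 fold change of -0.22. Plxna4, a semaphorin receptor, had 0.178 and 0.145 CPM in Empty vector against 2.90 and 3.14 CPM (log2 fold change 1.79, SE 0.10). Sema3b, a secreted semaphorin, fell from 10.5 and 9.72 CPM to 0.964 and 1.00 CPM (log2 fold change -2.48, SE 0.16), Sema6d from 2.79 and 2.45 CPM to 0.143 and 0.0953 CPM, and the receptor Plxnb1 from 47.4 and 43.3 CPM to 7.79 and 8.08 CPM (log2 fold change -2.37, SE 0.12). E1KD SCR was on the same side of Empty vector in all 4. The semaphorin receptor Nrp1, which was not called, had 30.5 and 33.1 CPM against 43.9 and 43.0 CPM, with 65.8 and 67.4 CPM in E1KD SCR.

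Of 21 other axon guidance genes 5 were called higher and 3 lower. Besides Epha2, these were Igsf11, an adhesion molecule of synapses, with 1.15 and 1.12 CPM against 26.9 and 26.6 CPM (log2 fold change 3.70, SE 0.09), the neurotrophin Bdnf, with 2.90 and 3.69 CPM against 17.2 and 16.9 CPM (log2 fold change 2.07, SE 0.09), and the ephrin receptors Ephb3 and Epha7. In E1KD SCR Igsf11 had 27.6 and 28.2 CPM and Bdnf 24.9 and 26.1 CPM, so both were high with either second shRNA. Robo1, the receptor of Slit ligands, fell from 15.2 and 13.6 CPM to 0.299 and 0.116 CPM (log2 fold change -3.68, SE 0.14), with 2.18 and 2.40 CPM in E1KD SCR. Slit3, a ligand of this receptor family, had 1.32 and 1.20 CPM in Empty vector and no read in E1KD Platr18 KD. Of 25 genes with 1 CPM in an axon list whose own heading ties it to hnRNP E1 silencing in NMuMG cells, 7 were called higher and 6 lower. Since the study chose that list on its own data, it is not independent evidence of a direction.

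Interferon-stimulated genes were called in both directions. These genes answer interferon through STAT and IRF factors, which bind elements built from GAAA repeats. Of 29 members 5 were called higher and 5 lower, with a median log2 fold change of -0.03 that becomes 0.06 with values rescaled to equal sums. The 5 higher genes were Parp9, Parp12 and Parp14, which are ADP-ribosyltransferases of the PARP family, Dtx3l, the ubiquitin ligase that partners Parp9, and Usp18, a protease that removes ISG15. The 5 lower genes were Ifit2, Ifit3 and Ifit3b, which encode RNA-binding antiviral proteins, Samd9l and Herc6. Promoter windows from 250 bases before to 50 bases after the start, from RefSeq on GRCm38.p6, are shown for Ifit3 and Ifit3b of the lower and Dtx3l and Parp12 of the higher genes to show windows with and without the element. Capitals mark matches to the core of the interferon-stimulated response element, taken as 2 GAAA repeats with any 2 bases between them. Both strands were searched, the matches shown lie on the strand opposite to the gene, and the sequences run 5′ to 3′ on the gene's strand.
Ifit3 (chr19:34583279-34583578, plus strand): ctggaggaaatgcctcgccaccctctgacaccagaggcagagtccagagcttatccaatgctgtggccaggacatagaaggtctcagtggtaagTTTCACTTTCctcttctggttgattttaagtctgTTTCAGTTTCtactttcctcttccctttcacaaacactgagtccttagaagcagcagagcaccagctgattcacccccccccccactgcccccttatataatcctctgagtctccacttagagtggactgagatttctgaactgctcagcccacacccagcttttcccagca
Ifit3b (chr19:34607707-34608006, plus strand): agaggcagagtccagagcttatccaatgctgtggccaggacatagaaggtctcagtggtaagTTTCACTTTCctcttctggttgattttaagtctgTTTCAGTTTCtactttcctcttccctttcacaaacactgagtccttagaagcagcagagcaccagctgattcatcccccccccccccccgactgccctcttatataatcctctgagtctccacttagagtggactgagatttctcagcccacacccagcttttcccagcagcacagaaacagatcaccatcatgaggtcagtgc
Dtx3l (chr16:35938978-35939277, minus strand): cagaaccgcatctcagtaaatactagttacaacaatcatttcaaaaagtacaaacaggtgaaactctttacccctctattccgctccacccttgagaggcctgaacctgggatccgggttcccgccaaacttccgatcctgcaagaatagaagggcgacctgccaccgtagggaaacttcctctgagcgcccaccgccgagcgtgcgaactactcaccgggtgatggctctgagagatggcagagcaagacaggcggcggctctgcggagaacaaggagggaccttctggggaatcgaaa
Parp12 (chr6:39118300-39118599, minus strand): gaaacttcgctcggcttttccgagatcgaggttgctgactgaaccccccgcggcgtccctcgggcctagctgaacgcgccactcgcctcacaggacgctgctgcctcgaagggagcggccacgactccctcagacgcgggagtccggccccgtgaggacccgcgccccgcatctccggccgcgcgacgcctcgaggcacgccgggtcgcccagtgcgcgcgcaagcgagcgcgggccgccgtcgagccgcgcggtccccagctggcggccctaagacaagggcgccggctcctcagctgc

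Ifit3 held matches that begin at positions -156 and -122 from the start and Ifit3b at -188 and -154, and the windows of Dtx3l and Parp12 held none. Of 32851 RefSeq windows of this length 1131 (3.44%) held the motif. Windows were found for 22 of the 29 members, with a match in 0 of 2 genes called higher, 2 of 5 called lower and 8 of 15 not called. A match describes the letters of this window, and no binding was measured.

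Ifit3 had 6.75 and 7.18 CPM in Empty vector, 1.19 and 0.826 CPM in E1KD SCR and 2.68 and 2.84 CPM in E1KD Platr18 KD (log2 fold change -1.08, SE 0.10). Ifit3b had 7.03 and 7.95 CPM, 0.866 and 0.683 CPM, and 2.05 and 2.45 CPM in the same order (log2 fold change -1.39, SE 0.09). The 2 genes are near copies, as their windows show, and reads may have been split between them. Samd9l, a restriction factor, fell from 94.7 and 98.5 CPM to 28.2 and 34.4 CPM (log2 fold change -1.60, SE 0.09), with 18.98 and 17.3 CPM in E1KD SCR. Ifit3, Ifit3b and Samd9l were thus lower in both silenced groups than in Empty vector, and lowest in E1KD SCR.

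Parp12 had no read in Empty vector, 7.78 CPM in each E1KD SCR library and 9.37 and 10.0 CPM in E1KD Platr18 KD, which is at least 229-fold higher against the floor of 3 reads. Dtx3l rose from 1.51 and 1.42 CPM to 5.17 and 5.69 CPM (log2 fold change 1.38, SE 0.10), Parp9 from 2.30 and 1.87 CPM to 8.08 and 9.38 CPM (log2 fold change 1.66, SE 0.12), and Parp14 had 0.0274 and 0.0290 CPM against 2.05 and 2.49 CPM (log2 fold change 1.66, SE 0.10). The E1KD SCR libraries were above Empty vector in each.

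Genes of MHC class I presentation were called only in the higher direction, 5 of 14 members, with a median of 0.78. Of the 14, 3 (H2-Q4, H2-Q6 and H2-D1) reached 1 CPM in E1KD Platr18 KD only and so could only be higher. H2-K1, a class I heavy chain, rose from 1.68 and 1.75 CPM to 25.0 and 26.7 CPM (log2 fold change 3.30, SE 0.11), and H2-Q4 from 0.137 and 0.217 CPM to 3.51 and 3.88 CPM, although reads of class I genes can be shared among near copies. The loading factors Tapbp (tapasin) and Calr (calreticulin) rose from 9.41 and 10.5 CPM to 25.9 and 30.7 CPM and from 325 and 348 CPM to 821 and 808 CPM. E1KD SCR was between the 2 groups for all of these genes, with 18.2 CPM of H2-K1 in each library.

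Of 14 chemokine and cytokine genes 5 were called higher and 1 lower. Of the 14, 5 reached 1 CPM in only 1 of the 2 groups, which fixed their direction. Cxcl1, Ccl20, Cxcl5 and Il33 were above 1 CPM in all 4 libraries. Cxcl1, which attracts neutrophils, rose from 17.4 and 18.3 CPM to 85.4 and 100.3 CPM (log2 fold change 2.31, SE 0.11), with 50.7 and 50.1 CPM in E1KD SCR. Ccl20 rose from 32.1 and 34.8 CPM to 62.6 and 75.0 CPM (log2 fold change 1.01, SE 0.12), while the E1KD SCR libraries lay below Empty vector, at 15.1 and 15.0 CPM. Cxcl5 had 194 and 195 CPM in Empty vector and 385 and 465 CPM in E1KD Platr18 KD (log2 fold change 1.12, SE 0.10), but without replicate 2 of E1KD Platr18 KD the change is 0.98 and not called. Il33, an alarmin of epithelia, fell from 156 and 175 CPM to 28.4 and 27.4 CPM (log2 fold change -2.52, SE 0.07). The immune marker Cd68 had 1.41 and 1.14 CPM in Empty vector and 3.12 and 2.74 CPM in E1KD Platr18 KD, and the summed immune marker list moved from between 1.97 and 2.22 CPM to between 3.89 and 4.43 CPM. The myeloid genes Itgam and Lyz2 were also higher in both E1KD Platr18 KD libraries, with 0.0548 and 0.101 CPM against 0.231 and 0.191 CPM and with 0.507 and 0.536 CPM against 0.713 and 0.667 CPM. The leukocyte marker Ptprc had 0.247 and 0.174 CPM in Empty vector and 0.339 and 0.266 CPM in E1KD Platr18 KD. Adgre1 and Cd3e stayed at or below 0.0204 CPM. In E1KD SCR, Cd68 had 2.75 and 3.14 CPM, Itgam 0.202 and 0.159 CPM and Lyz2 0.731 and 0.651 CPM. Ptprc had 0.108 and 0.127 CPM in E1KD SCR.

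Of 17 growth factor ligands 4 were called lower and 0 higher, namely Fgf18, Pdgfa, Vegfc and Cyr61. At an unadjusted p under 0.05 in limma, 5 ligands had positive and 8 negative fold changes. Cyr61, a matricellular target of YAP, fell from 97.7 and 82.6 CPM to 25.3 and 24.9 CPM (log2 fold change -1.80, SE 0.12). Of 13 receptors and adaptors 4 were called lower and 2 higher. The FGF receptor Fgfr2 fell from 30.6 and 31.4 CPM to 0.0762 and 0.0961 CPM (log2 fold change -4.88, SE 0.11, adjusted p = 9.2e-14). In E1KD SCR it had 9.64 and 9.76 CPM, and between E1KD and NMuMG its log2 fold change was -0.04. Egfr had 219 and 205 CPM against 109 and 101 CPM (log2 fold change -1.01, SE 0.08), just past the limit, and at -0.96 is not called without replicate 2 of E1KD Platr18 KD or without replicate 1 of Empty vector.

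The insulin receptor substrate Irs1 fell from 12.8 and 10.9 CPM to 3.58 and 4.11 CPM (log2 fold change -1.41, SE 0.10), and was lower in E1KD SCR, at 0.582 and 0.826 CPM. Igf2r, which clears IGF2 and sorts lysosomal enzymes, rose from 5.68 and 5.63 CPM to 89.9 and 90.1 CPM, a 15.9-fold change of the means (log2 fold change 3.77, SE 0.16), and Flt1, a VEGF receptor, from 3.22 and 3.19 CPM to 14.4 and 15.4 CPM (log2 fold change 1.92, SE 0.09). Both were as high in E1KD SCR, at 83.0 and 82.1 CPM and at 14.2 and 14.0 CPM.

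Of 17 Wnt and Notch genes 3 were called higher and 4 lower, with a median of -0.70. Of the 17, 3 reached 1 CPM in only 1 of the 2 groups. Jag2 of these could only be lower, and Fzd2 and Wnt4 only higher. Jag2, a Notch ligand, fell from 6.41 and 6.76 CPM to 0.326 and 0.177 CPM (log2 fold change -2.60, SE 0.16), with 4.40 and 5.75 CPM in E1KD SCR, and the Notch target Hey1 fell from 5.52 and 5.37 CPM to 1.42 and 1.498 CPM. The receptor Notch1 rose from 23.5 and 19.9 CPM to 45.4 and 45.5 CPM (log2 fold change 1.04, SE 0.13), with 24.5 and 24.9 CPM in E1KD SCR, and is under the limit at 0.92 without replicate 2 of Empty vector. The Wnt receptor Fzd2 rose from 0.411 and 0.478 CPM to 3.14 and 3.45 CPM and Wnt4 from 0.110 and 0.203 CPM to 1.56 and 2.23 CPM.

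The cell cycle lists are set beside the shares over all 15185 genes, 3.3% called higher and 4.13% lower. Of 31 G2/M genes 0 were called by limma, and at an unadjusted p under 0.05 the fold change was positive for 7 and negative for 3. Mki67, a marker of cycling cells, had 495 and 511 CPM against 843 and 824 CPM, at 0.73 under the limit. Of 30 G1/S genes, Ccne1 and Mcm5 were called higher and Ccnd2 lower. At an unadjusted p under 0.05 in limma, 10 of the 30 had positive and 3 negative fold changes. Cyclin E1 (Ccne1) rose from 12.01 and 12.6 CPM to 32.8 and 31.9 CPM (log2 fold change 1.33, SE 0.14), as in E1KD SCR, where it had 33.3 and 33.0 CPM. Cyclin D2 (Ccnd2) fell from 96.7 and 93.7 CPM to 43.8 and 39.9 CPM (log2 fold change -1.17, SE 0.07).

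Of 18 CDK inhibitors and p53 targets 4 were called higher and 1 lower. Cdkn1a, which encodes the inhibitor p21, rose from 25.6 and 27.7 CPM to 66.8 CPM in each library (log2 fold change 1.30, SE 0.08), with 43.3 and 47.0 CPM in E1KD SCR. Trp53inp1, a p53 target, rose from 77.8 and 71.6 CPM to 234 and 235 CPM (log2 fold change 1.64, SE 0.09), against 105 and 90.7 CPM in E1KD SCR, and Eda2r, a receptor of the TNF family, from 1.21 and 1.22 CPM to 37.3 and 34.1 CPM (log2 fold change 4.05, SE 0.11). Cdkn2a fell from 3.01 and 2.68 CPM to 0.143 CPM in each library (log2 fold change -1.75, SE 0.13).

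Metabolic lists were mixed. Of 20 glycolysis genes 3 were called higher and 2 lower. Hexokinase Hk1 rose from 40.8 and 40.2 CPM to 104 and 103 CPM (log2 fold change 1.33, SE 0.13). Of the enolases, Eno2 had 0.0959 and 0.159 CPM against 9.16 and 10.9 CPM (log2 fold change 3.29, SE 0.09), and Eno3 fell from 68.2 and 71.8 CPM to 14.3 and 14.1 CPM (log2 fold change -2.23, SE 0.22). Pfkp, a phosphofructokinase, had 0.0411 and 0.0579 CPM in Empty vector, 13.9 and 13.8 CPM in E1KD SCR and 3.16 and 3.45 CPM in E1KD Platr18 KD. The transporter of glutamine Slc38a1, in the list of ATF4 response and amino acid transport (26 members, 3 called higher and 0 lower), had 0.342 and 0.319 CPM, 25.4 and 26.1 CPM, and 10.4 CPM in each E1KD Platr18 KD library. Both were lower in E1KD Platr18 KD than in E1KD SCR but above Empty vector.

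Of 24 NRF2 and glutathione genes 5 were called higher and 1 lower, with a median of 0.36. Hmox1, which degrades heme, rose from 12.8 and 12.5 CPM to 34.1 and 34.5 CPM (log2 fold change 1.37, SE 0.08), and Aldh3a1, an aldehyde dehydrogenase, from 0.178 and 0.159 CPM to 7.53 and 7.68 CPM (log2 fold change 2.88, SE 0.14). Of 25 actin cytoskeleton genes Flnc was called higher and Mylk and Cnn3 lower. Fold changes were positive for 5 of the 25 and negative for 20, and for 4 and 9 at an unadjusted p under 0.05 in limma. The median was -0.09, and -0.00014 with values rescaled to equal sums. Limma called 0 of 23 genes of cholesterol synthesis, 0 of 18 AP-1 and immediate early genes and 0 of 13 mitochondrially encoded mRNAs. At an unadjusted p under 0.05, the fold changes were positive for 8 and negative for 3 in the first list, positive for 7 and negative for 6 in the second, and positive for 4 and negative for 0 in the last. Of 3 pluripotency genes 0 were called, with 1 positive and 1 negative at that p. No gene of the Ly6 surface antigen list reached 1 CPM in 2 of the 4 libraries, whereas in E1KD SCR its 9 genes summed to between 56.9 and 58.6 CPM.

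Among 4180 genes of types other than protein-coding, 36 were called higher and 47 lower. These are smaller shares than the 3.3% and 4.13% over all 15185 genes. Among 11005 protein-coding genes, 465 were called higher and 580 lower. Bc1, a short cytoplasmic RNA known from neurons, rose from 11.9 and 13.1 CPM to 95.3 and 82.2 CPM (log2 fold change 2.73, SE 0.09), with 81.5 and 79.3 CPM in E1KD SCR. The unnamed genes RP24-230J14.5 and RP24-378G4.3 rose from 0.945 and 0.666 CPM to 36.8 and 35.6 CPM and from 0.630 and 0.434 CPM to 11.7 and 10.8 CPM. RP23-122J17.9 had 8.96 and 8.08 CPM in Empty vector and 0.00679 and 0.0272 CPM in E1KD Platr18 KD, and RP23-388A19.6 had 5.04 and 4.79 CPM against 0 and 0.00681 CPM. The nuclear RNAs Malat1 and Neat1 fell from 5230 and 4789 CPM to 2079 and 2190 CPM (log2 fold change -1.23, SE 0.11) and from 328 and 313 CPM to 148 and 141 CPM (log2 fold change -1.15, SE 0.07). Both were as low in E1KD SCR, with 2072 and 1922 CPM of Malat1 and 144 and 149 CPM of Neat1.

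**Figure D5:**
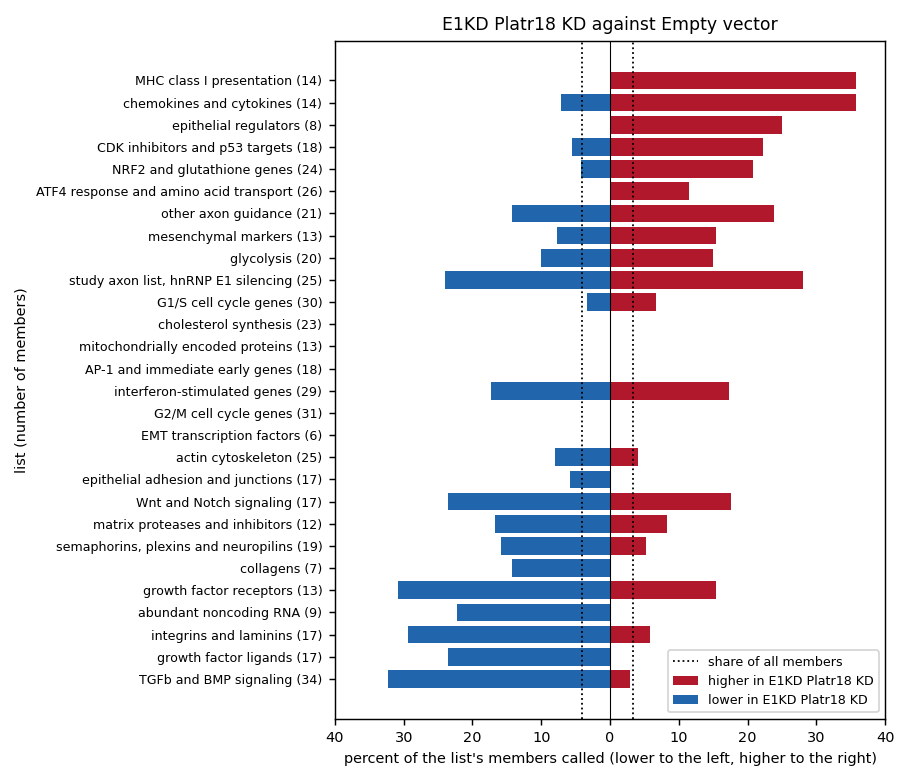
Percent of the members of each gene list called higher (red, to the right) and lower (blue, to the left) in E1KD Platr18 KD against Empty vector, with the number of members in parentheses. Dotted lines mark the shares of all 15185 genes, 4.13% lower and 3.3% higher, and the lists are ordered by the difference of the 2 shares, with TGFβ and BMP signaling at the bottom and MHC class I presentation at the top.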

How the data were processed

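By the study's methods and the submitters' processing notes, total RNA was sequenced on an Illumina HiSeq instrument, and the authors aligned reads with Bowtie2 2.2.5 to GRCm38.p6 and assigned them to genes of the M18 annotation by expectation-maximization in Partek. Strand handling is not given in the sources used here. The authors deposited CPM values for 54986 genes, with 0.0001 added to each, which was subtracted. The sums per library were 0.742 to 0.797 times 1e6 in the 4 libraries compared. Between 97.2% and 97.6% of their low values were whole multiples of 1 read within 0.1 reads, against 91.6% in the lowest library of the study, so the values were not turned into counts.

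Log2(CPM + 1) values of all 20 libraries were fitted with limma 3.58.1 in R 4.3.3 (trend, 10 group means, 10 residual degrees of freedom) for the 17106 genes with at least 1 CPM in 2 libraries. Genes were called at p under 0.001 and a log2 fold change of at least 1, and Benjamini-Hochberg adjusted p-values cover all genes tested. The replicate numbers did not pair the samples (correlation of deviations -0.06) and no block was used.

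Members and lists were chosen with earlier results of these data known. By rule, the text names Pcbp1, Lncenc1 and Sema4f, the 8 largest changes and 5 smallest p in each direction among called genes whose groups do not overlap and that have 5 CPM in the higher group, 3 genes of other types in each direction, and up to 3 called genes of each list in each direction (2 of the highest CPM where none was called). Other genes were named after their values were seen. Alternatives were another pseudocount, other scalings and filters, smaller fits, a replicate block and leaving out each library. Tables and figures used Python 3.11.15, pandas 2.3.3 and matplotlib 3.10.9. A few single genes are left out of the text and are not reported here.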

Additional observations from a re-analysis of the deposited data

Results flagged for a closer look

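For 6 genes named by rule, the effects in the 2 hnRNP E1 comparisons were called in opposite directions. The difference between them, E1KD Platr18 KD against Empty vector minus E1KD against NMuMG, is given as a description, since this choice of genes fixes its sign and puts it past the limits for a call. Lncenc1 differed by -4.79 on the log2 scale (SE 0.13), with effects of -1.92 and 2.87. For the activin subunit gene Inhbb the difference was -4.62 (SE 0.12), from -1.70 and 2.92. For Col6a1 it was -4.48 (SE 0.18), from -1.95 and 2.53. The Notch ligand gene Jag2 differed by -3.63 (SE 0.23), with effects of -2.60 and 1.03. For the collagen receptor gene Ddr2 the difference was -3.50 (SE 0.15), from -1.16 and 2.34. Ehf went the other way, by 3.73 (SE 0.18), from 2.02 and -1.70.

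In E1KD SCR against Empty vector, which shares the Empty vector libraries, the log2 fold changes were -0.12 for Lncenc1, 0.56 for Inhbb, 0.99 for Col6a1, -0.33 for Jag2, 1.32 for Ddr2 and 1.43 for Ehf. Jag2 and Ehf thus had the sign of E1KD Platr18 KD in E1KD SCR, and Inhbb, Col6a1 and Ddr2 had the other sign. Lncenc1 was close to Empty vector in E1KD SCR, and the libraries of these groups overlapped, so its sign says little. The E1KD and NMuMG libraries have a far lower mt-Rnr2 share, and the part of this in the differences was not tested.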

How the results depend on the processing

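Each group has 2 libraries, which limits every test, and the E1KD Platr18 KD libraries are deeper than those of Empty vector, so genes near 3 reads are better resolved in the former. Counts of calls followed the pseudocount and the filter. With pseudocount 0.1, 1768 genes were called in E1KD Platr18 KD against Empty vector in place of 1132, 1708 in E1KD SCR against Empty vector in place of 1023, and 633 between E1KD Platr18 KD and E1KD SCR in place of 253. When only genes averaging at least 5 CPM were kept, so that fewer were tested, these were 646, 557 and 139, and 948 in E1KD against NMuMG in place of 1614. A fit of only the 4 libraries of that comparison called 758. Of the genes called in E1KD against NMuMG, 554 were called in the same direction in E1KD Platr18 KD against Empty vector. This number was 952 of 2369 (40.2%) with pseudocount 0.1, 316 of 948 (33.3%) with the filter and 343 of 758 (45.3%) with fits of 4 libraries, and 558 of 3074 (18.2%) without replicate 2 of E1KD, against 34.3% of the 1614. Opposite calls numbered 34, and 90 and 19 with that pseudocount and filter. The cause of the changes with the pseudocount and the smaller fit was not tested.

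Leaving out each library in turn gave 1104 to 1138 calls in E1KD Platr18 KD against Empty vector, 1011 to 1043 in E1KD SCR against Empty vector, 238 to 266 in E1KD Platr18 KD against E1KD SCR, 1412 to 3074 in E1KD against NMuMG, 543 to 560 E1KD genes called in the same direction and 29 to 42 opposite calls. The 3074 came without replicate 2 of E1KD. With the replicate number as a block, 1132, 1022, 253 and 1606 genes were called in these 4 comparisons, and the numbers did not pair the samples.

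Of 128 genes named by rule, none reversed. Under the alternatives 11 values lost their call, all with a main change near 1. Egfr was at -0.92 with equal sums and -0.96 without replicate 2 of E1KD Platr18 KD or replicate 1 of Empty vector, and Gsta2, Jag1, Timp1, Cxcl5 and Notch1 lost theirs under 1 or 2 settings each. Cd68 gained a call with pseudocount 0.1, at 1.14.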

Other observations

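The calls in E1KD Platr18 KD against Empty vector were also counted by chromosome, among members with a mean of at least 5 CPM in the higher group. Of 11466 such members over the autosomes and X, 324 (2.83%) were called higher and 440 (3.84%) lower. On chromosome 19, 9 of 411 genes were called higher and 35 lower, with a median log2 fold change of -0.26, beside -0.30 for these genes in E1KD SCR against Empty vector and -0.09 in E1KD against NMuMG. On chromosome 9, 12 of 616 were called higher and 42 lower. On chromosome 4, 35 of 715 were called higher and 22 lower, with a median of 0.23, and on chromosome 14, 28 of 388 were called higher and 12 lower. These values were picked after all chromosomes had been seen, and no test was made.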
